A study of Mus musculus with 15 samples.

Results

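The comparison described here sets the liver transcriptome of mice at postnatal week 8 (W8) against that at postnatal week 6 (W6), the last 2 ages of a developmental series. Both libraries came from whole liver of the inbred strain C57BL/6, with no treatment or genetic change named in the labels, and each age had 1 library, so no difference below has a replicate check and none was tested. The number of animals behind a library, their sex, their feeding and the hour of collection are not given in the sources used here, and age cannot be told apart from anything else that differed between the 2 collections. Members were the genes placed on chromosomes whose estimate was marked OK in both libraries and which reached 10 FPKM (a fragment count scaled by transcript length and library size) in at least 1 of them. This gave 4517 members of 46966 entries. Of these, 3764 were at 10 FPKM or more in both libraries, 396 in W6 only and 357 in W8 only. At the edge of the rule, Rab26os entered with 9.85 FPKM in W6 and 10.009 FPKM in W8, and AI464131 stayed just outside with 9.99906 and 7.99 FPKM. Another gene, the cytochrome P450 Cyp4f14 (203 FPKM in W6 and 99.2 FPKM in W8), was left out because its estimate failed in W6.

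The adult liver makes most plasma proteins, stores and releases glucose, synthesises fat and cholesterol, and conjugates foreign compounds. Under inflammatory cytokines it turns to the acute phase response, in which interleukin 6 and interleukin 1 act through STAT3, NF-kB and C/EBP factors to raise serum amyloid A, haptoglobin, fibrinogen and others, while albumin, transthyretin and other secreted proteins fall. Feeding raises glycolytic and lipogenic genes through insulin, SREBP1c and ChREBP, fasting raises gluconeogenic and ketogenic genes through glucagon, glucocorticoids and PPAR-alpha, and puberty in males brings the growth hormone pattern that raises the major urinary proteins.

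Each library of the series held about 15700000 to 20700000 fragments, as estimated from the error bounds in the files, with 20700000 in W6 and 17300000 in W8. A transcript 1000 bases long with 3 fragments would read 0.145 FPKM in W6 and 0.173 FPKM in W8. The liver label was checked on albumin (Alb, 19947 FPKM in W6 and 16250.4 FPKM in W8) and on apolipoprotein A1 (Apoa1, 20032 and 11428 FPKM), both abundant. Both libraries carried male-type transcripts: the X inactivation RNA Xist was at 0.0499 and 0.0675 FPKM, and the Y-linked Ddx3y at 3.49 and 6.69 FPKM. The Y-linked Eif2s3y, named after its values were seen, was at 23.9 FPKM in the week 3 library (W3), 3.59 in W6 and 18.2 in W8. Ddx3y was at 11.1 FPKM in W3. The Y-linked Uty and Kdm5d were also named after their values were seen. In W3, W6 and W8, Uty was at 2.03, 0.550 and 1.77 FPKM and Kdm5d at 2.14, 0.600 and 1.58 FPKM. Each of these Y-linked genes was lower in W6 than in W3 or W8, and the cause was not tested.

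Most genes differed little between the 2 libraries, and a minority differed by a wide margin. The measure was the log2 ratio of FPKM + 1, W8 over W6, and a gene was called where this reached 1 in size, a 2-fold difference on that scale. At W8, 232 members (5.14%) were at least doubled and 139 (3.08%) at least halved, 371 in all (8.21%). The median log2 ratio over all members was -0.23, with quartiles of -0.50 and 0.13. Of all members, 3058 were below 0 and 1459 above 0. The authors' 95% bounds, which cover the error of estimation within a library and not the spread between animals, were apart for 231 of the doubled and 134 of the halved genes. They were also apart for 981 members with the higher value in W8 (21.7%) and 2304 with the lower value (51%), so separate bounds were common among all members.

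The split between higher and lower calls moved with the scale. Of the calls, 62.5% were higher in W8 as deposited, 75.1% after quantile normalization, 77.4% after the trend with GC content was removed, and 88.8% when the acute phase list and the Mup genes were left out of the library totals. Those 2 gene groups took a growing part of the library: the acute phase list held 3.18% of all FPKM at W3, 4.22% at W6 and 16.0% at W8, and the Mup genes 0.00551%, 5.43% and 11.8%. Leaving them out moved the median log2 ratio of all members from -0.23 to 0.08. Small negative ratios among abundant genes are therefore best read against the median of all members. Among genes at 10 FPKM or more in both libraries the calls were nearly even, at 110 doubled (2.92%) and 106 halved (2.82%).

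**Figure D1:**
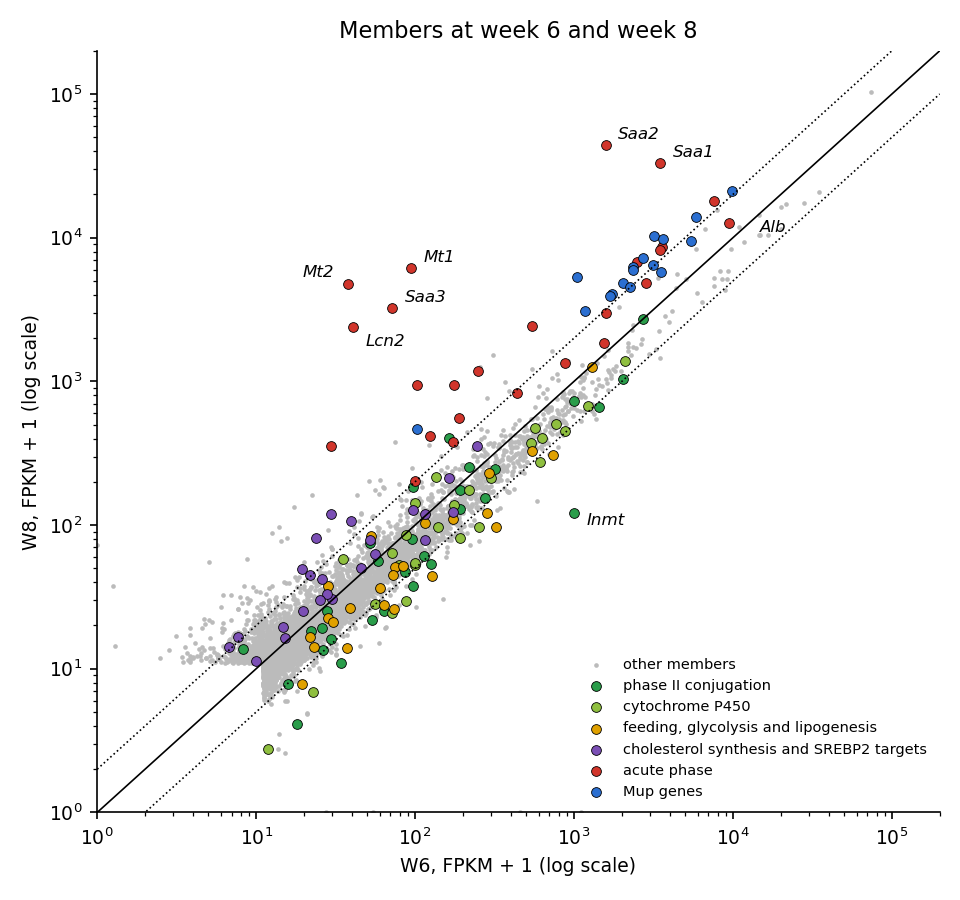
FPKM + 1 of each of the 4517 members in W6 (x axis, log scale) and W8 (y axis, log scale), with the solid line marking equal values and the dotted lines a 2-fold difference. Acute phase genes (red) reach far above the upper dotted line, with Saa2 at 44203 FPKM in W8 against 1586 in W6. Most conjugation and lipogenesis genes lie below the line of equal values, as do 3058 of all members.

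Outside small RNAs, the acute phase genes held the highest ratios of the comparison. Of the 28 genes on that list 25 were members, 19 of these were at least doubled, none was halved, and all 25 were higher in W8. Their median log2 ratio was 1.57, against -0.23 for all members. The other 3 genes of the list, Orm3, Cd14 and Il1rn, were under 10 FPKM in both libraries.

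Serum amyloid A proteins, apolipoproteins of the inflammatory response, came first by level. Saa2 was at 14.2 FPKM in the week 2 library (W2), 172 in W3, 1586 in W6 and 44203 in W8, a log2 ratio from W6 to W8 of 4.80 (4.69 to 4.91 from the bounds). Saa1 was at 17.6, 518, 3494 and 33177 FPKM, a log2 ratio of 3.25. In both genes the W6 library already stood above all earlier ages, and W8 stood above W6. Saa3, which is also made outside hepatocytes, went from 70.5 to 3236 FPKM (log2 ratio 5.50), and Saa4, the constitutive member of the family, from 188 to 559 FPKM (1.57). Together the 4 genes made up 0.0769% of all FPKM at W3, 0.551% at W6 and 7.75% at W8. They lie side by side on chromosome 7 between 46711998 and 46754314 in the coordinates of the files (GRCm38), and Saa1 and Saa2 are close copies, so the way their fragments were divided is uncertain. Their sum was 5080.2 FPKM in W6 and 77380.4 FPKM in W8, a 15.2-fold ratio. FPKM is scaled by transcript length, so this sum can also depend on the division where the lengths of the pair differ.

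The metallothioneins, small proteins that bind zinc and copper, showed the largest ratios of all members outside small RNAs. Mt2 was at 737 FPKM in W3, 36.8 in W6 and 4785 in W8, a log2 ratio of 6.98 (6.80 to 7.19). Mt1 was at 1469.7, 92.8 and 6112 FPKM, a log2 ratio of 6.03. Both had their lowest value of all 15 libraries in W6, so the ratio joins a low value at W6 with a high one at W8. Over the 13 libraries before W6, Mt1 lay between 1246 FPKM (W1) and 7386 FPKM (E16.5), and its W8 value fell inside that range. Mt2 lay between 415 FPKM (W1) and 4307 FPKM (E15.5) in those libraries, and its W8 value was above them. Lcn2, which encodes the iron-sequestering lipocalin 2, had W2 and W3 values close to that of W6: it was at 23.3 FPKM in W2, 30.8 in W3, 39.9 in W6 and 2375 in W8, a log2 ratio of 5.86. Its W8 value was also above those of the fetal and newborn libraries, which reached 278 FPKM at E18.5.

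The promoter windows of these genes are shown because these genes were among the 12 largest ratios of the comparison. They are from RefSeq on GRCm38.p6, run 5′ to 3′ on the gene's strand from 250 bases before to 50 bases after the annotated start, and capitals mark matches to any of 4 motifs. The motifs were searched on both strands: GGG, any 2 bases and TTTCC for NF-kB, TTCNNNGAA for STAT, and TTGCNNAA for C/EBP. The last, TGCNCNC, is a loose pattern for the core of the metal response element. It leaves the middle base free, so a match need not be such a core. No match overlapped another in the windows printed.
Saa1 (chr7:46742931-46743230, minus strand): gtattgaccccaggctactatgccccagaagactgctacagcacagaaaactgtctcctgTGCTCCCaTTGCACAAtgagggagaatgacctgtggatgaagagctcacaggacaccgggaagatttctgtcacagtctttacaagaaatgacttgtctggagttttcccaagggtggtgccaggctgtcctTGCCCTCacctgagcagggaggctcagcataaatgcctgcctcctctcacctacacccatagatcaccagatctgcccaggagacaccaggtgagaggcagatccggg
Saa2 (chr7:46751583-46751882, plus strand): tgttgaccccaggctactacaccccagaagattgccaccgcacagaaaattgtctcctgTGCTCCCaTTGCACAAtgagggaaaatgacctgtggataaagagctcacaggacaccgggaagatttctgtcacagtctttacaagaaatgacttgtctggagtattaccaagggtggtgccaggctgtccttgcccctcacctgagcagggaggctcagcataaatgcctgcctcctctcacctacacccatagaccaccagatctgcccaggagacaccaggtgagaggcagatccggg
Lcn2 (chr2:32387690-32387989, minus strand): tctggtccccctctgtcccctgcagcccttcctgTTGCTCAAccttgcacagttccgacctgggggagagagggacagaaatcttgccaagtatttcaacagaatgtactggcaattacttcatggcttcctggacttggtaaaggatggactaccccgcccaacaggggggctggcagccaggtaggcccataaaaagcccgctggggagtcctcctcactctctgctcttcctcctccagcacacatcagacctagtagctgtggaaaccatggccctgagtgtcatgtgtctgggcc
Mt2 (chr8:94172368-94172667, plus strand): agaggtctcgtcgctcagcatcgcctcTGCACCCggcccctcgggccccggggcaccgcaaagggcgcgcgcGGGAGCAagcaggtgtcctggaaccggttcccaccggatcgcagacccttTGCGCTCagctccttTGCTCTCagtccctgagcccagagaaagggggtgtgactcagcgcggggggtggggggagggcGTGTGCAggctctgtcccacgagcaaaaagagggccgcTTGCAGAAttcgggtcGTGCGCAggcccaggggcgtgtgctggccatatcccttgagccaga
Mt1 (chr8:94178839-94179138, plus strand): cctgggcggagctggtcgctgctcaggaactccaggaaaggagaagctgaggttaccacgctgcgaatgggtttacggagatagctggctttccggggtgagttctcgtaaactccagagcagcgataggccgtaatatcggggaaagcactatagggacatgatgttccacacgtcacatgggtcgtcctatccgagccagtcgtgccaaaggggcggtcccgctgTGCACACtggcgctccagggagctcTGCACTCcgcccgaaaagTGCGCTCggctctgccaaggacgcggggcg
In Saa1 and Saa2 the capitals nearest the 5′ end hold the same match to the loose metal pattern (TGCTCCC) and the same C/EBP match. Saa1 has a further match to the loose metal pattern (TGCCCTC). The capitals of Lcn2 are 1 C/EBP match. Those of Mt1 are 3 matches to the loose metal pattern, and those of Mt2 are 6 such matches and 1 C/EBP match. Among the 19 doubled acute phase genes, 16 had a window, and 62.5% of these held the C/EBP motif, against 12.2% of the 27025 genes with a window, 17.6% of all doubled members with one and 17.3% of the halved. The NF-kB motif was in 12.5% of the 16 and in 1.89% of all genes, and the STAT motif in 25% and 9.55%. The loose metal pattern was in 43.8% of the 16 and in 53.6% of all genes. Close copies such as Saa1 and Saa2 were counted separately, so the windows of the doubled acute phase genes are not all independent. These shares describe letters in the windows and not binding.

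The remaining acute phase genes ranged widely in level and ratio. Hp, which encodes the hemoglobin scavenger haptoglobin, went from 7622 to 17949.9 FPKM (log2 ratio 1.24). The fibrinogen chains Fgb and Fgg, which form clots, had log2 ratios of 1.27 and 1.22 (3579 to 8646 FPKM and 3494 to 8147 FPKM), while the third chain Fga reached 0.77. Hamp, which encodes the iron hormone hepcidin, was at 7781 FPKM in W3, 545 in W6 and 2432 in W8, so W8 lay above W6 but below W3. Its close copy Hamp2 did not follow it and was at 71.7 FPKM in W6 and 45.7 in W8.

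Orm2, one of the orosomucoid carrier proteins, went from 102 to 945 FPKM (log2 ratio 3.20) and its neighbour Orm1 from 2497 to 6818 FPKM (1.45), with the same caution about close copies. Steap4, a metalloreductase, went from 28.5 to 351 FPKM (3.58). The protease inhibitor Serpina3n had a log2 ratio of 2.26, the pentraxin Apcs 2.41 and the copper carrier Cp 1.74. The doubled genes with the smallest ratios were the pentraxin Crp (1.12) and the lipopolysaccharide binding protein Lbp (1.02). Itih3, Lrg1, Fga, Itih4, Hpx and C3 stayed under a doubling, at 0.93, 0.91, 0.77, 0.62, 0.41 and 0.26. The abundant complement and scavenger genes C3 and Hpx thus lay at the low end of the list.

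**Figure D2:**
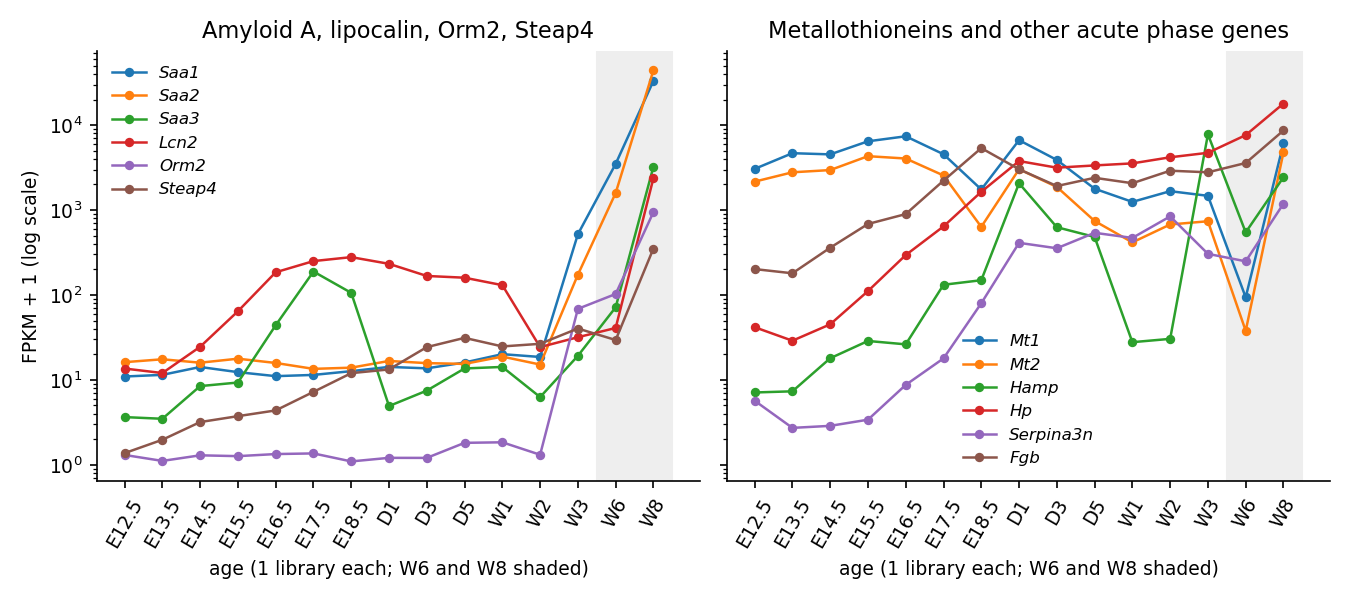
FPKM + 1 (y axis, log scale) of 12 acute phase genes in each of the 15 libraries (x axis, 1 library per age), with W6 and W8 shaded. Saa1 and Saa2 stay near 10 to 20 FPKM up to W2 and climb through W3 and W6 to W8, whereas Mt1 and Mt2 dip at W6.

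Genes that carry the inflammatory signal were also higher in W8. On the list of interleukin 6 and NF-kB responses, 6 of 10 members were at least doubled and none halved, with a median log2 ratio of 1.27. Il1r1, Socs3 and Icam1 were members through W8 only, and with no floor 8 of 18 genes were doubled with a median of 0.93. Cxcl1, a neutrophil attractant, went from 11.5 to 87.0 FPKM (log2 ratio 2.82), and Il1r1, the interleukin 1 receptor, from 7.82 to 57.2 FPKM (2.72). Cebpb, a transcription factor of the acute phase, was at 184 FPKM in W3, 74.2 in W6 and 375 in W8 (2.32). Socs3, the feedback inhibitor of STAT3 signalling, went from 3.73 to 19.5 FPKM (2.11). Junb (1.46) and Bcl3 (1.07) were the other doubled members, and Stat3 itself was at 33.9 and 48.2 FPKM (0.50). Tifa, an adaptor of NF-kB signalling and among the 12 largest ratios, went from 4.07 to 54.3 FPKM (3.45).

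Interferon response genes did not share this. None of the 8 members was doubled or halved, and the median log2 ratio was -0.23, the same as for all members. That median was at 0.08 with the acute phase list and the Mup genes out of the totals, so it has no fixed direction. Bst2, the most abundant, was at 571 FPKM in W6 and 473 in W8.

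Most glucocorticoid response genes were higher in W8. The 8 of 13 that reached 10 FPKM were all at least doubled, with a median log2 ratio of 1.68, but Sgk1 and Cdkn1a reached it only in W8, where they were high. With no floor 10 of 13 were doubled and the median was 1.24, and with a pseudocount of 5 the count was 7 of 8. Of the 8, Lcn2, Tat, Dusp1 and Cdkn1a are also on other lists described here. Gadd45g, a growth arrest gene, was at 19.3 FPKM in W3, 16.3 in W6 and 132 in W8 (log2 ratio 2.94). For others the W6 value was the low one: the kinase gene Sgk1 was at 32.9, 4.31 and 20.2 FPKM. The leucine zipper gene Tsc22d3 was at 62.7, 25.1 and 60.7 FPKM, so its W8 value was close to that of W3. The cell cycle inhibitor Cdkn1a was at 30.3, 7.20 and 27.7 FPKM. Fkbp5, a sensitive glucocorticoid target, was low in both, at 2.32 FPKM in W6 and 2.77 in W8. Of 19 immediate early genes 8 were members and 5 of these were at least doubled, among them Zfp36 (37.3 to 89.3 FPKM). Jun (5.14 to 18.1 FPKM), Egr1 and Btg2 reached 10 FPKM only in W8. With no floor 6 of 18 were doubled and the median log2 ratio was 0.45 in place of 1.13.

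The secreted proteins that fall in an acute phase response were lower in W8, though none was halved. All 8 members of that list had a log2 ratio below 0, as did 3058 of all 4517 members. The list median was -0.66, against -0.23 for all members. The cortisol binding globulin gene Serpina6 went from 103 to 52.0 FPKM (log2 ratio -0.98), transthyretin (Ttr) from 9229.7 to 5116 FPKM (-0.85) and Apoa1 from 20032 to 11428 FPKM (-0.81). Retinol binding protein (Rbp4) was at -0.62, fetuin A (Ahsg) at -0.70, transferrin (Trf) at -0.33 and Alb at -0.30. With the trend of GC content removed the median was -0.32 and Trf was at -0.01. With the acute phase list and the Mup genes out of the totals Alb was at 0.03, so its direction is not fixed. Over the wider list of 42 plasma protein genes, 1 was doubled (Apob, 77.9 to 193 FPKM), none was halved and the median was -0.45. Of 22 complement genes, 1 was doubled and none halved.

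Lipogenic and glycolytic genes, which feeding raises, were lower in W8. Of 24 members none was doubled, 8 were halved and 22 had a ratio below 0, with a median log2 ratio of -0.70. Over all 4517 members 3058 were below 0, 3.08% were halved and the median was -0.23. Thrsp, a lipogenic regulator, was at 45.4 FPKM in W3, 323 in W6 and 96.4 in W8 (log2 ratio -1.73). Pklr, liver pyruvate kinase, was at 38.9, 127 and 43.5 FPKM (-1.53), and Srebf1, which encodes the lipogenic factor SREBP1, at 52.5, 72.8 and 25.01 FPKM (-1.51). In these 3 genes W6 was the highest of the libraries from week 3 on. Slc2a2, the liver glucose transporter, instead was lower at each step, at 88.6, 36.2 and 13.02 FPKM (-1.41). Fatty acid synthase (Fasn) was at 62.9 FPKM in W6 and 26.6 in W8, and the fructose enzymes Khk and Dak had log2 ratios of -1.25 and -1.22. Scd1, the stearoyl desaturase, was at 44.8 FPKM in W3, 545 in W6 and 329 in W8 (-0.73). Mlxipl, which encodes ChREBP, was higher in W8 (51.7 and 83.5 FPKM).

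Genes that fasting raises did not move as 1 group. On the list for gluconeogenesis and amino acid use, 6 of 15 members were at least doubled and none halved, with a median log2 ratio of 0.38. Over all members 5.14% were doubled, 3.08% were halved and the median was -0.23. With no floor 7 of 24 genes of the list were doubled, and their median was 0.30 against 0.01 for all genes. Pck1, the rate-limiting enzyme of gluconeogenesis, was at 1324 FPKM in W3, 254 in W6 and 1259.7 in W8 (log2 ratio 2.31), and Igfbp1, an insulin-repressed binding protein, at 789, 50.2 and 202 FPKM (1.98). The amino acid transporter Slc38a2 (1.73), Nnmt (1.32), Ddit4 (1.2) and tyrosine aminotransferase (Tat, 389 to 851 FPKM, 1.13) were the other doubled members. G6pc, the last enzyme of gluconeogenesis, was at 126 and 165 FPKM (0.38), and its coactivator Ppargc1a was at 0.168 and 0.495 FPKM. The PPAR-alpha list, which follows fatty acid release, held 1 doubled and 3 halved genes of 17 and had a median of -0.43. Angptl4, a lipase inhibitor, went from 5.79 to 14.2 FPKM (1.17). The peroxisomal thiolase Acaa1b went from 584 to 146 FPKM (-1.996), Ehhadh from 47.6 to 18.8 FPKM (-1.30) and the fatty acid binding protein Fabp1 from 8915 to 4334 FPKM (-1.04).

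The most fasting-sensitive PPAR-alpha targets were low in both libraries. Cyp4a14 was at 671 FPKM in W2, 141 in W3, 2.70 in W6 and 1.25 in W8. Cyp4a10 was at 8.04 FPKM in W6 and 0.992 in W8, and the fasting hormone Fgf21 at 1.65 and 0.827 FPKM.

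Cholesterol synthesis genes, which SREBP2 drives, were mostly higher in W8 than in W6. Of 24 members 7 were at least doubled and none halved, with a median log2 ratio of 0.38. Over all members 5.14% were doubled and the median was -0.23. With a pseudocount of 5 the count of doubled genes on the list was 4. Hmgcs1, the first enzyme committed to the pathway, was at 468 FPKM in W3, 28.5 in W6 and 119 in W8 (log2 ratio 2.02). Idi1 was at 244, 22.9 and 79.9 FPKM (1.76), and Sc4mol at 278, 38.5 and 107 FPKM (1.45). Sqle (1.36), Hsd17b7 (1.08) and Cyp51 (1.03) were also doubled. In Hmgcs1, Idi1 and Sc4mol W6 was the lowest and W3 the highest of the 3 libraries. Ebp and Tm7sf2 were the 2 members below 0 (-0.50 and -0.54).

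**Figure D3:**
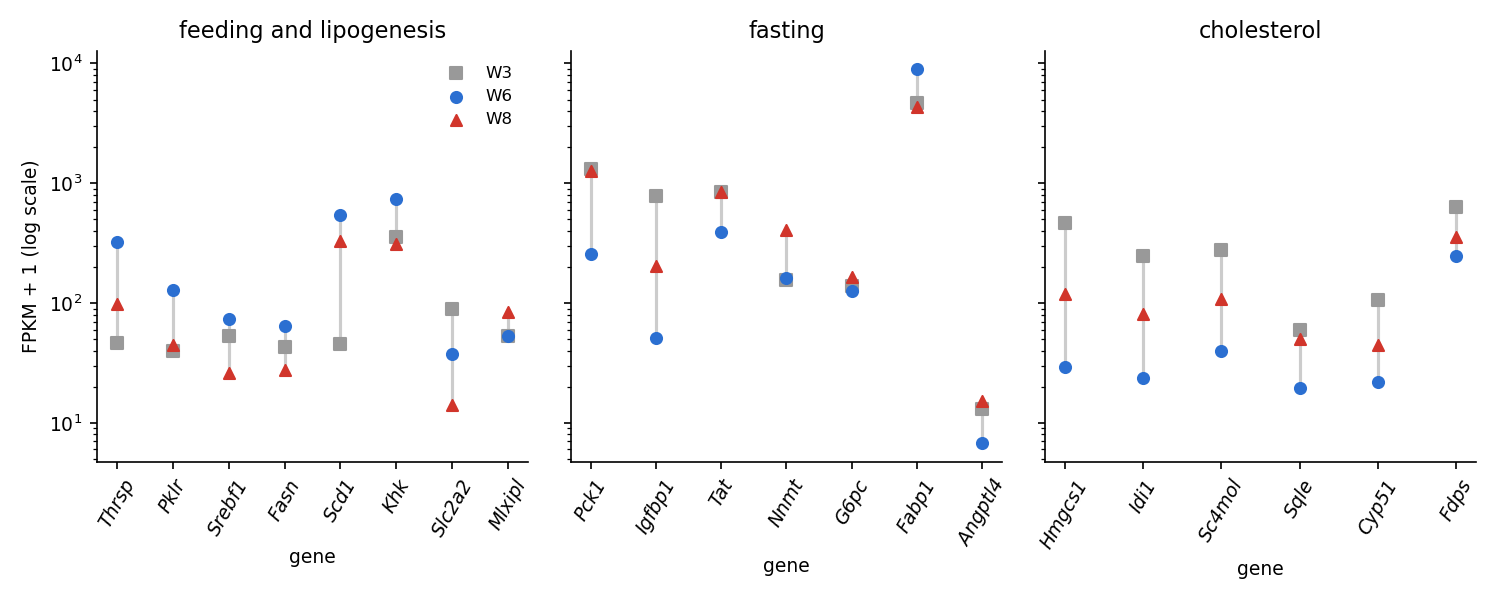
FPKM + 1 (y axis, log scale) of 21 genes of feeding, fasting and cholesterol synthesis in W3 (grey squares), W6 (blue circles) and W8 (red triangles), 1 library each. W6 is the highest of the 3 for Thrsp, Pklr, Srebf1, Fasn, Scd1 and Khk and the lowest for Pck1, Igfbp1, Tat and Hmgcs1 to Fdps; W3 and W8 share no library with each other, but each ratio to W6 uses the same W6 library.

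Clock genes bear on the hour of collection, which is not given. Only 4 of 21 reached 10 FPKM. Nr1d1, a repressor of the clock that peaks by day, was at 21.5 FPKM in W6 and 5.69 in W8 (log2 ratio -1.75). Nfil3 was at 53.3 and 55.6 FPKM. Dbp, whose level swings widely over the day, was near the detection limit in both (0.272 and 0.129 FPKM), Arntl was at 6.90 and 7.97 FPKM, and Per1 at 0.291 and 3.58 FPKM.

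Genes that metabolise foreign compounds were lower in W8. None of 27 cytochrome P450 members was doubled and 7 were halved, with a median log2 ratio of -0.62. Of the 27, 24 were below 0, as were 3058 of all 4517 members. Over all members 3.08% were halved and the median was -0.23. Cyp26a1, which degrades retinoic acid, went from 10.8 to 1.77 FPKM (log2 ratio -2.10). The Cyp2c genes Cyp2c69 (-1.73), Cyp2c54 (-1.57), Cyp2c40 (-1.54) and Cyp2c50 were also halved, though fragments of this family of close copies may be divided uncertainly. Cyp1a2 went from 607 to 275 FPKM (-1.14), while the most abundant P450, Cyp2e1, was at 2086 and 1381 FPKM (-0.60) and Cyp3a11 at 565 and 469 FPKM (-0.27).

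Conjugating enzymes held the lowest single ratio. Inmt, an N-methyltransferase, was at 411 FPKM in W3, 994 in W6 and 121 in W8, a log2 ratio of -3.03 (-3.12 to -2.94), the lowest of all members outside small RNAs and predicted genes. Of 30 members of the list 9 were halved and 1 doubled (Nnmt), with a median of -0.70. Among the halved were the glutathione transferases Gsta2 (17.0 to 3.14 FPKM, -2.12) and Gstm1 (1435 to 664 FPKM, -1.11), the sulfotransferase Sult5a1 (-1.65) and Ugt1a1, which glucuronidates bilirubin (126 to 53.0 FPKM, -1.23). Targets of the xenobiotic receptors CAR, PXR and AHR had 5 of 8 members halved and a median of -1.13, among them the exporter Abcc3 (-1.39) and the esterase Ces2a (-1.11). Targets of the oxidative stress factor NRF2 had 6 of 16 halved. These 4 lists share genes, so their counts are not separate evidence. The values to set beside them are those of all members, with 3.08% halved and a median of -0.23.

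Other low ratios lay outside these pathways. Arrdc3, an arrestin-like regulator, went from 14.2 to 1.61 FPKM (log2 ratio -2.55), the water channel Aqp8 from 149 to 29.5 FPKM (-2.29) and the carbonic anhydrase Car14 from 57.9 to 14.0 FPKM (-1.97). Moxd1, a monooxygenase-like gene, had the highest ratio outside the lists and the small RNAs: it stayed under 1 FPKM in the 14 earlier libraries, was at 0.265 FPKM in W6 and reached 36.4 FPKM in W8 (4.89). Mup-ps9, also among the 12 largest ratios, rests on an estimate of 13.3 FPKM whose bounds run from 0 to 29.2. Small RNAs, which such libraries measure poorly, gave Snora78 at 1110 FPKM in W6 and listed at 0 in W8, Snora81 at 457 FPKM and listed at 0, and Snora73a listed at 0 in W6 and at 71.4 FPKM in W8.

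The genes of male maturation, a process of these weeks, split into higher and lower ones. Of 29 male-biased members 10 were at least doubled and 3 halved, with a median log2 ratio of 0.65. The doubled genes were 9 major urinary protein genes and Cyp7b1, an oxysterol hydroxylase (3.77 FPKM in W3, 144 in W6 and 300.1 in W8, log2 ratio 1.05). The Mup genes, which encode pheromone carriers excreted in male urine, form a cluster on chromosome 4 between 59933333 and 62150841 with 20 numbered entries. Of these, 17 were members, all 17 were higher in W8 and 15 were doubled, with a summed level of 54.0 FPKM in W3, 52021 in W6 and 122253 in W8. Mup7, the most abundant, was at 8.27, 9833 and 21022 FPKM, and Mup17 had the largest ratio, from 1045 to 5364 FPKM (2.36). These genes are near-identical copies and 8 of the 17 also have an entry on an alternate scaffold, so single Mup values are uncertain and the sum is the safer value.

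Outside the Mup cluster Cyp7b1 was the one male-biased gene doubled, and 3 were halved. Hsd3b5, a male-specific steroid reductase, was at 0.235 FPKM in W3, 326 in W6 and 127 in W8 (log2 ratio -1.36), Cyp2d9 at 162, 1326 and 588 FPKM (-1.17), and Cyp2u1 at 1.06, 14.2 and 6.16 FPKM (-1.09). With the GC trend removed, Cyp7b1 was at 0.70, Cyp2d9 at -0.74 and Cyp2u1 at -0.66, each under 2-fold. Elovl3 was at 443 and 384 FPKM, and the antitrypsin gene Serpina1e at 21629 and 17173 FPKM (-0.33). None of the 23 female-biased genes reached 10 FPKM in either library: Sult2a1 was at 1278 FPKM in W3, 0.201 in W6 and 0.815 in W8. In the growth hormone axis, 1 of 10 members was doubled (Igfbp1) and 3 halved. The growth hormone target Igfals went from 129.8 to 42.1 FPKM (-1.60), Socs2 from 14.6 to 4.97 FPKM (-1.39) and Igfbp2 from 466 to 232 FPKM (-1.005), while Igf1 was at 248 and 203 FPKM (-0.28) and the receptor Ghr at 202 and 148 FPKM (-0.44).

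Fetal and proliferation genes were low in both libraries. The fetal albumin-like gene Afp was at 2899 FPKM in W2, 48.9 in W3, 35.2 in W6 and 38.5 in W8, and of 22 oncofetal genes 3 were members, none of them past 2-fold. Of 28 cell cycle genes 3 were members, and the only one past 2-fold was the inhibitor Cdkn1a.

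Stress genes of the endoplasmic reticulum were mostly a little higher. Of 21 unfolded protein response genes 18 had a ratio above 0, and 2 were doubled, the chaperone Hsp90b1 (122 to 363 FPKM) and Creld2 (52.2 to 113 FPKM), with a median log2 ratio of 0.30. Of 15 heat shock genes 2 were doubled and the median was 0.03. Of 40 urea cycle and amino acid genes 5 were halved, led by Ass1 (3485 to 1459 FPKM), and none doubled.

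Most markers of other cells were under 10 FPKM in both libraries or differed by less than 2-fold. In whole liver, fewer cells of a type and less RNA per cell cannot be told apart. Of 14 neutrophil markers 3 were members and all 3 were doubled: S100a8 (7.59 to 23.9 FPKM), S100a9 (10.5 to 32.2 FPKM) and Prtn3 (5.16 to 31.6 FPKM). S100a8 and Prtn3 reached 10 FPKM only in W8, and with no floor the median log2 ratio over the 14 was 0.19. The defining marker Ly6g was at 0.136 FPKM in W6 and listed at 0 in W8, Mpo at 0.502 and 0.669 FPKM, and Elane at 0.529 and 0.704 FPKM. Summed over the 14 markers the level was 53.6 FPKM in W3, 29.7 in W6 and 98.0 in W8. The part of these cells in the acute phase values was not tested. Kupffer cell markers had 8 members, none past 2-fold, with Clec4f at 72.0 and 57.9 FPKM and C1qa at 117 and 80.4 FPKM. Of 5 erythroid members 3 globin genes were halved, among them Hba-a1 (1293 to 619 FPKM) and Hbb-bs (789 to 349.8 FPKM), with the caution that globins are close copies. No T or NK cell gene and no muscle gene reached 10 FPKM. Of 11 cholangiocyte markers the only member was Spp1 (7.40 to 36.9 FPKM), while Krt19 was at 1.22 and 0.557 FPKM.

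The log2 ratio also followed the GC content of the transcripts. Across the 4458 members with a GC value, Spearman's rho was -0.49 as a description, since the genes share 2 libraries. The same measure was 0.44 from W3 to W6 (4982 genes) and 0.08 from W3 to W8 (4938 genes). The 3 values share libraries in pairs and are not independent. Between adjacent libraries from postnatal day 1 (D1) to W3 the measure ran from -0.12 to 0.07. Larger swings occurred among fetal libraries, at 0.71 from E12.5 to E13.5 and -0.71 from E13.5 to E14.5. They were 0.61 from E15.5 to E16.5 and -0.50 from E16.5 to E17.5. With transcript length in place of GC content the measure was 0.08 from W6 to W8. In the fifth of members lowest in GC, 122 genes were doubled and 12 halved, with a median log2 ratio of 0.31. In the fifth highest in GC, 21 were doubled and 46 halved, with a median of -0.44. The doubled genes had a median GC content of 45.6% and the halved genes 54.5%, against 52.2% for all members.

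**Figure D4:**
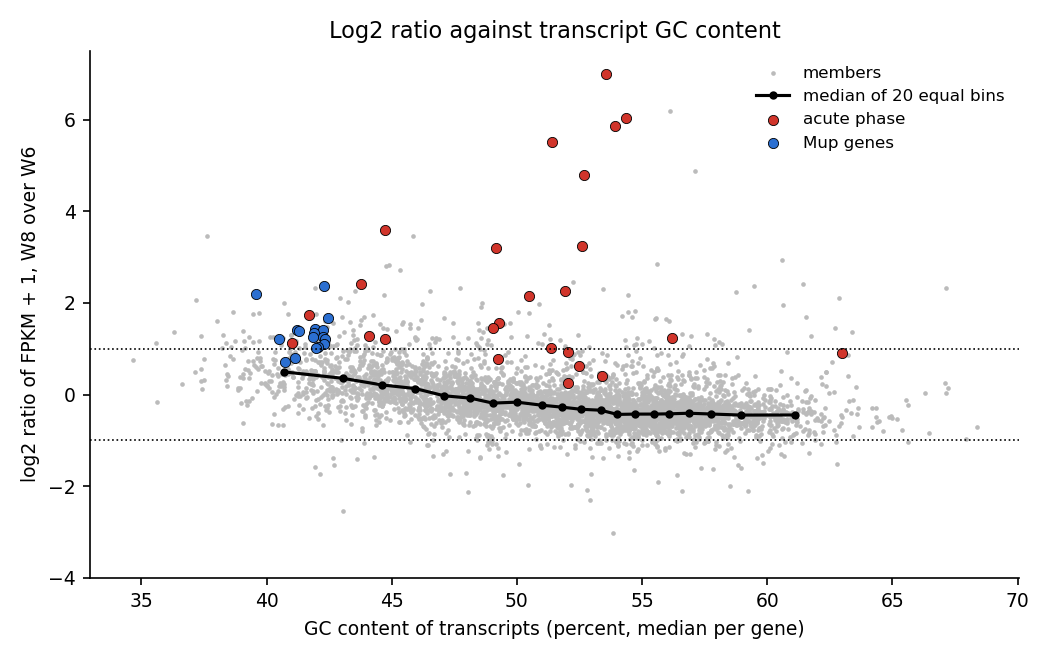
Log2 ratio of FPKM + 1, W8 over W6 (y axis), against the GC content of each gene's transcripts in percent (x axis), with the medians of 20 equal bins joined by the black line. The line falls from left to right; acute phase genes (red) lie above it at all GC contents and the Mup genes (blue) sit at its GC-poor end. The axis leaves out 2 small RNAs.

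Removing the bin medians left some groups as they were and reduced others. With the trend removed 206 genes were doubled (4.62%) and 60 halved (1.35%). The acute phase list went from 19 to 20 doubled genes and its median from 1.57 to 1.66, the glucocorticoid list kept 8 of 8, and the cholesterol list kept a count of 7. The P450 list had 9 halved genes in place of 7. In contrast, the 8 halved genes of the feeding list became 4, namely Thrsp, Pklr, Srebf1 and Slc2a2, and the targets of CAR, PXR and AHR went from 5 halved to 2. The NRF2 targets went from 6 halved to 3. The urea cycle and amino acid list went from 5 halved to 1, with Ass1 at -0.82. The male-biased list went from 10 doubled to 4, and the 17 Mup genes, with a median GC content of 41.9%, from 15 doubled to 4 with a median log2 ratio of 0.86 in place of 1.26. The 3 halved erythroid genes became 0. Leaving the acute phase list and the Mup genes out of the totals gave 5 halved feeding genes, 5 halved P450 genes, 5 halved conjugating genes, 2 halved targets of CAR, PXR and AHR, 3 of NRF2 and no halved erythroid or urea cycle gene, with 14 male-biased genes doubled. The bin medians also take out any difference that true regulation tied to GC content would make, and these cannot be told apart with 1 library per age.

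**Figure D5:**
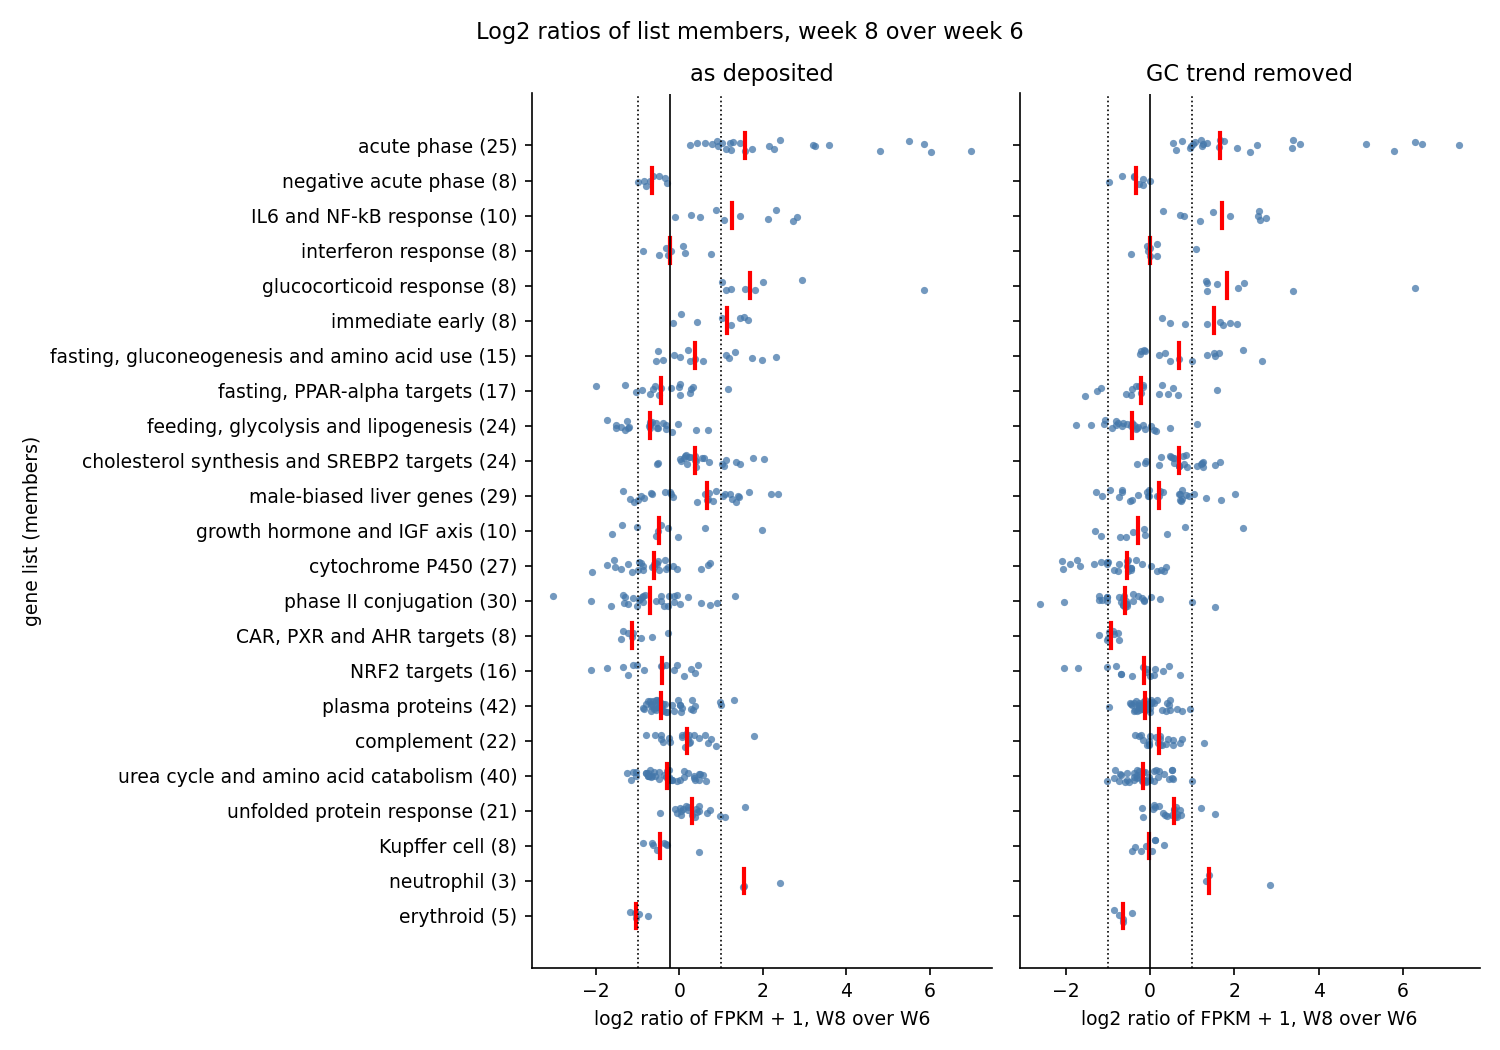
Log2 ratios of FPKM + 1, W8 over W6 (x axis), of the members of 23 gene lists (y axis, number of members in brackets), as deposited (left) and with the GC trend removed (right). Each point is a gene, red bars are list medians, the solid line is the median of all members and dotted lines mark 2-fold. The medians of the acute phase, interleukin 6, glucocorticoid, immediate early and neutrophil lists lie above 1 in both panels. Some of these members passed the floor only through W8, where they are high. With no floor the as-deposited medians were 1.52, 0.93, 1.24, 0.45 and 0.19 in that order.

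RNA from the mitochondrial genome and nuclear-retained RNA, which can track handling, also differed. Mitochondrial entries held 29.1% of all FPKM at W3, 17.5% at W6 and 19.5% at W8. The nuclear RNA Neat1 was at 205 FPKM in W3, 29.2 in W6 and 67.4 in W8, and Malat1 at 105, 31.9 and 45.4 FPKM. Their part in the differences above was not tested.

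A measure that uses neither library is the change from W1 to W3. Its median log2 ratio was 0.15 for the genes doubled from W6 to W8, 0.27 for the halved genes and 0.06 for all members. Of the doubled genes 17.2% had at least doubled and 5.17% at least halved between W1 and W3, against 23.7% and 9.35% of the halved genes and 7.68% and 3.17% of all members. Both called groups were thus more variable over the earlier weeks than members in general, in either direction. With W3 in place of W6 as the earlier library, 18 acute phase genes were doubled at W8, along with 226 genes in all (4.51%), and 637 genes were halved (12.7%).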

How the data were processed

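Total RNA from flash frozen liver was sequenced with 1 library per age, per the labels' protocols. Bowtie 0.12.2 and GRCm38.p2 are named, per the submitters' processing notes; no source used here names the program behind the FPKM values and their 95% bounds. The deposited FPKM values were used as they stand. Computed here: log2 of (FPKM + 1) in W8 over the same in W6, for entries on chromosomes with status OK and at least 10 FPKM in either library, called at a log2 ratio of 1 or -1. Depth was solved from the upper bounds, and intervals and the floor of 3 fragments cover counting error only. GC content was the median over each gene's transcripts in GENCODE M21, available for 98.7% of members, and its trend was removed by the medians of 20 equal bins. With 1 library per group no test was made. The members and the gene lists (845 symbols, 830 matched to an entry, 8 of them by an older or newer symbol) were chosen with earlier results of these data known. The genes named were the 12 highest and 12 lowest log2 ratios (without predicted genes, repeated symbols and scaffold copies), all members of the main lists, up to 4 called members and the most abundant member of each other list, and defining cell type markers; any other list gene was named after its values were seen. Promoter windows were RefSeq's on GRCm38.p6. The ratio and trend steps were tested on simulated data. The proteome of the study was not used here. Python 3.11.15, pandas 2.3.3, numpy 2.4.6, scipy 1.17.1 and matplotlib 3.10.9 were used. The alternatives were other pseudocounts, floors, scalings and sets of genes. Some genes of the lists are counted but not reported here by name.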

Additional observations from a re-analysis of the deposited data

How the results depend on the processing

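The comparison rests on 1 library per age, so leaving out a library was not possible, and differences between animals, collection, feeding or library preparation cannot be told apart from age. No paired analysis was possible because each group has 1 library and no test was made. Against 232 doubled and 139 halved genes, a pseudocount of 5 gave 149 doubled, a floor of 20 FPKM 150, no floor 493, and 10 FPKM in both libraries 110. Quantile normalization gave 83 halved genes and removal of the GC trend 60. With the acute phase list and the Mup genes left out of the totals, 397 were doubled and 50 halved. With W3 in place of W6, 637 were halved. These last alternatives (both libraries at the floor, totals without those genes, and W3) were chosen after seeing the data. A pseudocount of 0.1, a floor of 5 FPKM, median ratio scaling, leaving out mitochondrial entries or scaffold copies, and requiring separate bounds kept both counts within 1.5 times. The count of doubled acute phase genes ran from 17 to 22 over the alternatives, where separate bounds and 10 FPKM in both libraries were not counted for the list. Of 133 named genes past 2-fold none changed direction under the pseudocount, floor, scaling, GC and scaffold alternatives. The pseudocount, floor and scaffold alternatives cannot change a direction. Scaling and the GC trend could hardly turn a gene past 2-fold, so the absence of turns is no check of direction. Changes of direction were not counted with W3 in place of W6, where some turn: Igfbp1, Hmgcs1 and Hamp were higher in W3 than in W8. Of the named genes, 100 of 132 with a GC value were still past 2-fold with the GC trend removed, and 107 after quantile normalization. With no floor the median of the cholangiocyte markers was -0.11 over 10 genes, in place of Spp1 alone. The medians of 4 other lists also changed sign: interferon response (0.02), circadian clock (0.02), heat shock (-0.17) and monocytes (0.02). The causes were not tested. Depth limits the low genes: estimates near 0.2 FPKM rest on a few fragments.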
